A study of Mus musculus with 59 samples.

Results

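An insertion of the Eμ enhancer was compared directly with an insertion of a transcriptionally stopped PAIR4 element at the same position of the Igh locus, by the usage of every VH gene in pro-B cells. The comparison took in the 3 VDJ-seq libraries labelled Igh(EmG/EmG) and the 3 labelled Igh(P4StopG/P4StopG), 6 of the 59 samples and of the 48 VDJ-seq libraries of the series, and the members were chosen by these genotype labels and by their experiment numbers, which lie within 15 consecutive numbers that also cover 6 Igh(+/+) and 3 Igh(P4inv/P4inv) libraries. VDJ-seq counts unique VDJH and DJH joints in genomic DNA, and the usage of a VH gene is its percentage of all VDJH and DJH joints of a library. Each library came from sorted bone marrow pro-B cells of 1 mouse; the age of these mice is not given in the labels. Both alleles carry the deletion of the Igh(Δ890) allele on both chromosomes, which removes the VH genes from VH1-79 to VH1-48, and both carry their insert at its deletion point. The Igh(EmG/EmG) insert holds Eμ with the matrix attachment regions on both of its sides and the Iμ exon, linked to a Gfp gene and polyadenylation sites. The Igh(P4StopG/P4StopG) insert holds PAIR4 with a Gfp gene and polyadenylation sites in its first exon, which stop the PAIR4 transcript, and lacks VH8-7 and the V8.7E element. The inserts were placed in embryonic stem cells of a hybrid background, and the mice were then backcrossed to C57BL/6. Since the inserts differ in the enhancer, in its flanking sequences and in the transcription of Gfp, which lies behind the polyadenylation sites in Igh(P4StopG), the comparison is one of whole inserts. VH genes are named here by VH, where the deposited files write IGHV.

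In pro-B cells, a DH segment is first joined to a JH segment, and a VH gene is then joined to the DJH segment. The RAG recombinase cuts at a recombination signal sequence next to each segment, which consists of a heptamer, a spacer and a nonamer. The Igh locus contracts in these cells, so that distal VH genes, which lie far from the DH segments, come into reach. Eμ is the enhancer between the JH segments and Cμ, and activates the DH and JH end of the locus. PAIR elements are repeats in the distal VH region which bind Pax5, E2A and CTCF, and PAIR4 gives rise to a non-coding antisense transcript.

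The position of both inserts is shown by the genotyping primers, which were matched to chromosome 12 of the mm9 assembly. A primer pair used for both alleles brackets the proximal border of the deletion, at chr12:116237049-116237069 and chr12:116237737-116237757. The third primer of each allele is specific for the insert. That of Igh(EmG) matches chr12:114666117-114666141, between Ighm and the JH segments, where the native Eμ enhancer lies and which the allele still has. That of Igh(P4StopG) matches chr12:116500457-116500481, within the deleted region, where PAIR4 lies in the wild type locus. The distal border lies between the primers of the Igh(Δ890) allele at chr12:117126158-117126177 and chr12:117126678-117126697. The 4 primers of the 2 insertion alleles are given because they mark the proximal border of the shared site and a part of each insert. The rest of the content of the inserts is taken from the study's description.
Shared primer, forward: ctgaggatcactgtcacacct
Shared primer, reverse: agaggaaaatgcaggccaaga
Igh(EmG) primer: tccatacacatacttctgtgttcct
Igh(P4StopG) primer: tctgtaacttctttccactgacagg

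The 6 distal VH genes upstream of the insertion, VH1-85 to VH1-80, and the 6 downstream VH genes VH1-47, VH1-43, VH1-42, VH1-39, VH1-37 and VH1-36 all belong to the VH1 (J558) family, and each is annotated as a V segment on the minus strand. The nearest end of VH1-80 lies 23.9 kb from the distal border of the deletion, and VH1-81, VH1-82, VH1-83, VH1-84 and VH1-85 follow at 31.8, 64.1, 75.3, 92.2 and 112 kb. Downstream, VH1-47 lies 7.44 kb from the proximal border, and VH1-43, VH1-42, VH1-39, VH1-37 and VH1-36 follow at 52.6, 61.4, 83.8, 102 and 119 kb. Their recombination signal sequences are shown, since RAG acts on them; any 2 of them differ at 0 to 10 of 39 bases. The 39 bases were read from mm9 next to the 3′ end of each V exon, with the heptamer and the nonamer in capitals and the 23-base spacer in lower case.
VH1-85, chr12:117238200-117238238: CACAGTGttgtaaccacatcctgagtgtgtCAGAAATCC
VH1-84, chr12:117218874-117218912: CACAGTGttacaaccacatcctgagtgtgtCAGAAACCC
VH1-83, chr12:117201989-117202027: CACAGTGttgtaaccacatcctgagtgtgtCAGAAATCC
VH1-82, chr12:117190710-117190748: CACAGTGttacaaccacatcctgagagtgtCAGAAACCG
VH1-81, chr12:117158451-117158489: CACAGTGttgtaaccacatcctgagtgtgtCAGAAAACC
VH1-80, chr12:117150516-117150554: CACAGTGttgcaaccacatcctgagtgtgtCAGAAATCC
VH1-47, chr12:116229280-116229318: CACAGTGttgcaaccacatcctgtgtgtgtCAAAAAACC
VH1-43, chr12:116184122-116184160: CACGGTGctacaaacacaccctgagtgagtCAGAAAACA
VH1-42, chr12:116175285-116175323: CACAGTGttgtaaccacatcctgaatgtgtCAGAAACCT
VH1-39, chr12:116152771-116152809: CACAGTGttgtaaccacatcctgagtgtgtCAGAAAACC
VH1-37, chr12:116134410-116134448: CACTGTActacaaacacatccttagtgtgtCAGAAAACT
VH1-36, chr12:116118060-116118098: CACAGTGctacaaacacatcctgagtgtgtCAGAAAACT

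All 6 distal genes had the consensus heptamer CACAGTG, and their nonamers matched the consensus ACAAAAACC at 4 to 6 of 9 bases. Of the 114 VH genes with a position in mm9, 78 had this heptamer (68.4%), and of the 105 annotated as V segments 74 (70.5%). The match was sought only near the annotated exon end. VH1-18, at a mean usage of 1.06% in Igh(EmG/EmG), matched at 3 of 7 heptamer bases. Whether such low matches reflect the annotation was not tested. The signal sequences of VH1-85 and VH1-83 were identical over all 39 bases, and that of VH1-80 differed from them at 1 base, which lay in the spacer. VH1-81 and VH1-39, on opposite sides of the insertion, also had identical signal sequences. VH1-43 and VH1-37 lacked the consensus heptamer and were the least used of the 12 genes.

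The libraries were first checked against their labels by the 47 listed VH genes of the deleted region. Their summed usage was 0.203%, 0.283% and 0.271% in the Igh(EmG/EmG) libraries and 0.180%, 0.138% and 0.132% in the Igh(P4StopG/P4StopG) libraries, compared with 10.1% to 23.1% in these 6 Igh(+/+) libraries and 0.121% to 0.158% in the 3 Igh(Δ890/Δ890) libraries, whose experiment numbers lie apart from the others. The low sums fit a deletion on both alleles in all 6 libraries, and VH8-7, which neither insert holds, was at 0 in 5 of them and at 0.0029% in the second Igh(EmG/EmG) library. The joints assigned to genes that the alleles lack did not overlap between the genotypes and were higher in Igh(EmG/EmG), whereas as a percentage of VDJH joints alone they overlapped, at 0.578% to 0.738% and 0.343% to 0.615%. Of the 47 genes, 20 were above 0 in any of the 6 libraries, and VH1-64, with the highest mean, was at 0.0682%, 0.0928% and 0.0960% in Igh(EmG/EmG) and at 0.0720%, 0.0239% and 0.0420% in Igh(P4StopG/P4StopG). Their part in the usage of the other VH1 genes was not tested. The first Igh(P4StopG/P4StopG) library stood apart from its group with 29.3% of VDJH joints, and 1 Igh(+/+) library had 78.8%, whereas the other 5 had 46.5% to 56.8%. How many joints stand behind a percentage is not given, and the depth was not worked out from the values. The smallest value above 0 lay between 0.000967% and 0.00107% in the Igh(EmG/EmG) libraries and was 0.000980%, 0.00399% and 0.00280% in the Igh(P4StopG/P4StopG) libraries, in which 105, 127 and 120 of 241 listed genes were at 0.

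Distal VH gene recombination was higher in Igh(EmG/EmG) than in Igh(P4StopG/P4StopG) pro-B cells at the 4 genes farthest from the insertion, VH1-85 to VH1-82, by 1.95-fold to 3.19-fold in the means. VH1-81 and VH1-80, the 2 genes closest to it, did not pass the test. Of the 106 VH genes tested outside the deleted region, 6 were called higher in Igh(EmG/EmG) (5.66% of the genes tested) and 0 lower, by limma on log2(usage + 0.01) with Benjamini-Hochberg adjustment and a threshold of 0.05. At an unadjusted p under 0.05, 10 genes were higher and 1 was lower. The calls depended on single libraries: without the first Igh(EmG/EmG) library 3 genes were called, without the second or the third 0 genes were called (smallest limma adjusted p = 0.0594 and 0.0868), and without the first Igh(P4StopG/P4StopG) library 5 genes were called higher and 2 lower. The log2 differences of VH1-85, VH1-84, VH1-83 and VH1-82 stayed between 0.90 and 1.36 without the second or the third Igh(EmG/EmG) library. All 4 were called without the first or the second Igh(P4StopG/P4StopG) library, and VH1-85 lost its call without the third (limma adjusted p = 0.0603). Relative to the 2 Igh(+/+) libraries numbered just before each genotype, 3 genes were called (VH1-85, VH1-84 and VH1-82), and 2 (VH1-84 and VH1-82) without the Igh(+/+) library with 78.8% of VDJH joints. The distal genes held 4 of the 6 calls, and the median log2 difference over these 6 genes was 0.97, compared with 0.10 over all genes tested. The other calls were VH1-39 downstream of the insertion and VH1S12, a name without a position.

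VH1-82, the second most used distal gene, was at 0.645%, 0.893% and 0.907% in the Igh(EmG/EmG) libraries and at 0.265%, 0.514% and 0.471% in the Igh(P4StopG/P4StopG) libraries. The lowest Igh(EmG/EmG) library was thus above the highest Igh(P4StopG/P4StopG) library. The log2 difference was 0.99 ± 0.23 (SE; 95% interval 0.54 to 1.44; limma adjusted p = 0.000837). The Igh(+/+) libraries had a median of 0.590%, within a range of 0.449% to 1.33%.

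VH1-83 and VH1-84 are less used than the other distal genes in both genotypes. VH1-83 was at 0.164%, 0.151% and 0.165% in Igh(EmG/EmG) and at 0.0470%, 0.0718% and 0.0756% in Igh(P4StopG/P4StopG), with a log2 difference of 1.21 ± 0.28 (SE; limma adjusted p = 0.000902). All 3 Igh(EmG/EmG) values were also above the highest Igh(+/+) value of 0.128%, a difference that was not tested. Relative to the 2 Igh(+/+) libraries numbered just before each genotype, the log2 difference of VH1-83 was 0.75 and its call was lost (limma adjusted p = 0.413, and 0.872 without the library at 78.8%). VH1-84 was at 0.0593%, 0.0976% and 0.114% in Igh(EmG/EmG) and at 0.0392%, 0.0120% and 0.0336% in Igh(P4StopG/P4StopG). Its log2 difference of 1.43 ± 0.32 (SE; limma adjusted p = 0.000837) was the largest of the 106 genes tested with this pseudocount and all 6 libraries. That of VH1S12 was larger with a pseudocount of 0.001, and with VDJH joints only as the denominator (1.92 beside 1.56). Without the second Igh(P4StopG/P4StopG) library VH1-84 was at 1.07, below VH1-83, VH1-82 and VH1-85 at 1.28, 1.17 and 1.12. The values of VH1-84 were of the same order as those of VH1-64, which both alleles lack. The V exon of VH1-84 is 94.1% identical to that of VH1-85, its closest copy outside the deleted region, and 96.2% identical to that of VH1-75 within it.

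VH1-85, the most distal gene with joints among the names with a place in the locus order, was at 0.237%, 0.276% and 0.261% in Igh(EmG/EmG) and at 0.0941%, 0.167% and 0.134% in Igh(P4StopG/P4StopG), and the libraries did not overlap. The log2 difference was 0.95 ± 0.27 (SE; limma adjusted p = 0.0104). The log2 differences of VH1-85, VH1-84 and VH1-82 relative to the 2 Igh(+/+) libraries numbered just before each genotype were 1.90, 2.24 and 1.94, and 1.30, 2.01 and 1.35 without the library at 78.8%. VH1-86, the only gene beyond it with such a place, was at 0 in all 6 libraries and in the 6 Igh(+/+) libraries. VH1-87, looked at after the values were seen, has no place in this order and was at 0.335% to 0.399% in Igh(EmG/EmG) and 0.320% to 0.412% in Igh(P4StopG/P4StopG), with overlap.

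**Figure D1:**
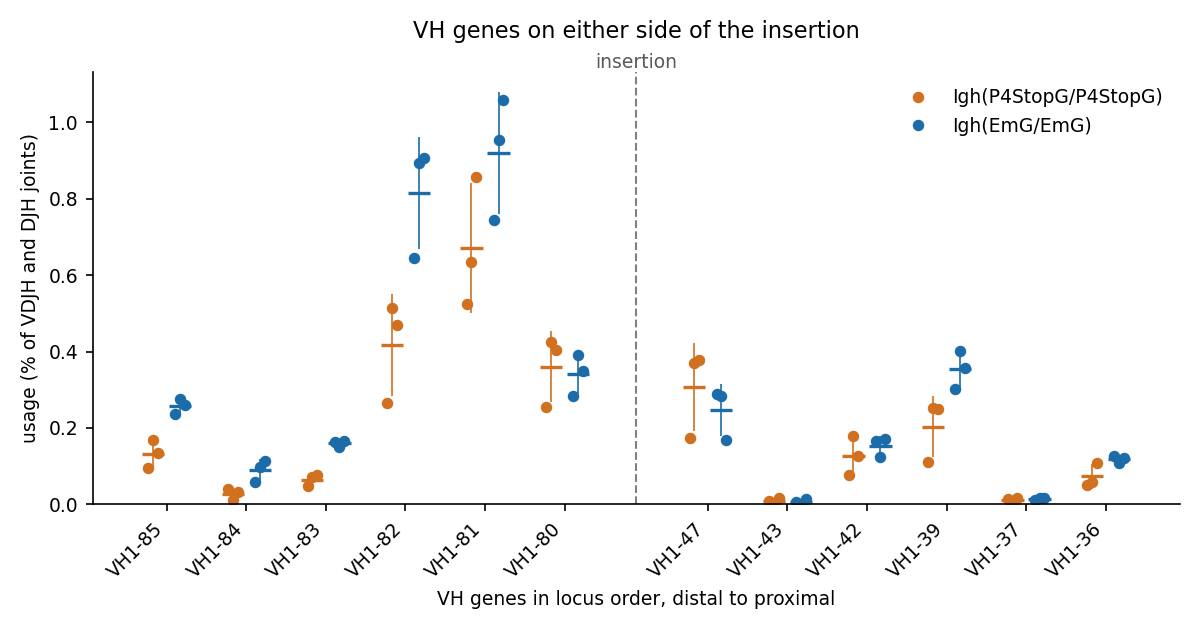
Usage of the VH genes on either side of the insertion in each library, as a percentage of VDJH and DJH joints (vertical axis), with genes in locus order (horizontal axis); dots are libraries, horizontal bars are means and vertical lines the SD of 3 libraries. From VH1-85 to VH1-82 all Igh(EmG/EmG) dots lie above all Igh(P4StopG/P4StopG) dots, whereas at VH1-80 and VH1-47 the genotypes overlap.

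VH1-81, the most used distal gene in both genotypes, was at 0.745%, 0.954% and 1.06% in Igh(EmG/EmG) and at 0.523%, 0.634% and 0.857% in Igh(P4StopG/P4StopG). The highest Igh(P4StopG/P4StopG) library exceeded the lowest Igh(EmG/EmG) library, and the log2 difference of 0.46 ± 0.21 (SE; 95% interval 0.05 to 0.88) did not pass the adjusted threshold (limma adjusted p = 0.378). Relative to the 2 Igh(+/+) libraries numbered just before each genotype it was 1.36 (limma adjusted p = 0.351), and 0.50 (limma adjusted p = 0.986) without the Igh(+/+) library at 78.8%. VH1-80 was at 0.285%, 0.391% and 0.3501% in Igh(EmG/EmG) and at 0.254%, 0.425% and 0.403% in Igh(P4StopG/P4StopG). The values overlapped, with a log2 difference of -0.05 and a 95% interval of -0.54 to 0.43 (limma adjusted p = 0.975). Relative to the same Igh(+/+) libraries, the difference at VH1-80 became 0.92 (limma adjusted p = 0.413), beside a median of 0.34 over all genes tested (0.10 without this scaling), and it was 0.38 (limma adjusted p = 0.986) without the Igh(+/+) library at 78.8%.

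The shares of 3 of the 6 distal genes in the distal usage did not overlap between the genotypes. By usage, 11.3% of all genes tested did not overlap. VH1-80 contributed 13.3%, 14.1% and 12.3% of the summed usage of the 6 distal genes in the Igh(EmG/EmG) libraries and 20.8%, 23.3% and 20.4% in the Igh(P4StopG/P4StopG) libraries, without overlap. VH1-82 contributed 30.2%, 32.3% and 31.8% compared with 21.7%, 28.2% and 23.8%, and VH1-83 contributed 7.69%, 5.46% and 5.78% compared with 3.85%, 3.93% and 3.83%. The shares of VH1-85, VH1-84 and VH1-81 overlapped, at 9.13% to 11.1%, 2.78% to 3.98% and 34.5% to 37.1% in Igh(EmG/EmG) and 6.81% to 9.18%, 0.656% to 3.21% and 34.8% to 43.4% in Igh(P4StopG/P4StopG). The shares do not depend on the percentage of VDJH joints, were looked at after the values of the genes were seen, and were not tested. Within a library they add up to the whole, so that a higher share of 1 gene lowers others. VH1-80 and VH1-82 are the closest copies of each other among the VH1 genes compared, with 96.2% identity and 11 differences over the 290 bases at the 3′ end of the V exon.

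**Figure D2:**
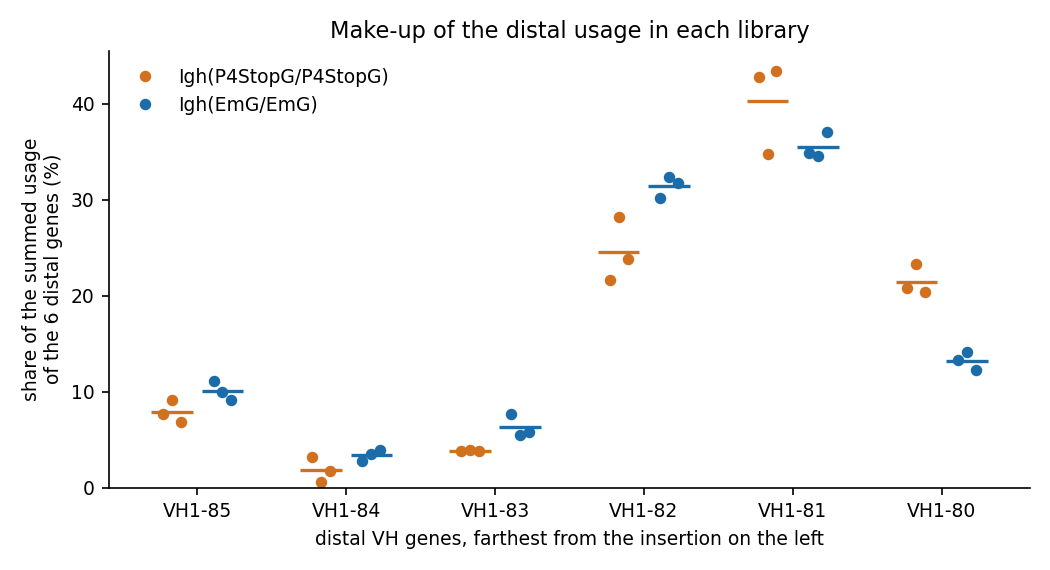
Share of each distal VH gene in the summed usage of the 6 distal genes of a library, in percent (vertical axis), by gene (horizontal axis); dots are the 3 libraries of each genotype and bars their means. The share of VH1-80 is lower in every Igh(EmG/EmG) library, at 12.3% to 14.1%, than in the Igh(P4StopG/P4StopG) libraries, at 20.4% to 23.3%.

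Summed over the 6 distal genes, usage was 2.14%, 2.76% and 2.85% in Igh(EmG/EmG) and 1.22%, 1.82% and 1.97% in Igh(P4StopG/P4StopG). The means of 2.58% ± 0.391 and 1.67% ± 0.398 (SD, n = 3 each) differed 1.54-fold, which is 0.63 on the log2 scale, and the libraries did not overlap. Scaled to the 2 Igh(+/+) libraries numbered just before each genotype, the log2 difference was 1.67, and 0.86 without the library at 78.8%, in both cases without overlap. The exact permutation test gave p = 0.1 (two-sided), the smallest value that 3 against 3 libraries allow, and an adjusted p of 0.7 over the 7 summed measures tested in this way (exact permutation test, Benjamini-Hochberg). As a percentage of VDJH joints alone, the 6 genes made up 6.08%, 7.21% and 7.66% in Igh(EmG/EmG) and 4.17%, 4.82% and 5.15% in Igh(P4StopG/P4StopG), again without overlap. For comparison, the sum was 1.43% to 1.99% in the 3 Igh(P4inv/P4inv) libraries, in which PAIR4 is inserted in inverted orientation, 1.54% to 2.47% in the Igh(+/+) libraries other than that with 78.8% of VDJH joints, in which it was 4.73%, and 0.409% to 0.615% in the Igh(Δ890/Δ890) libraries.

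**Figure D3:**
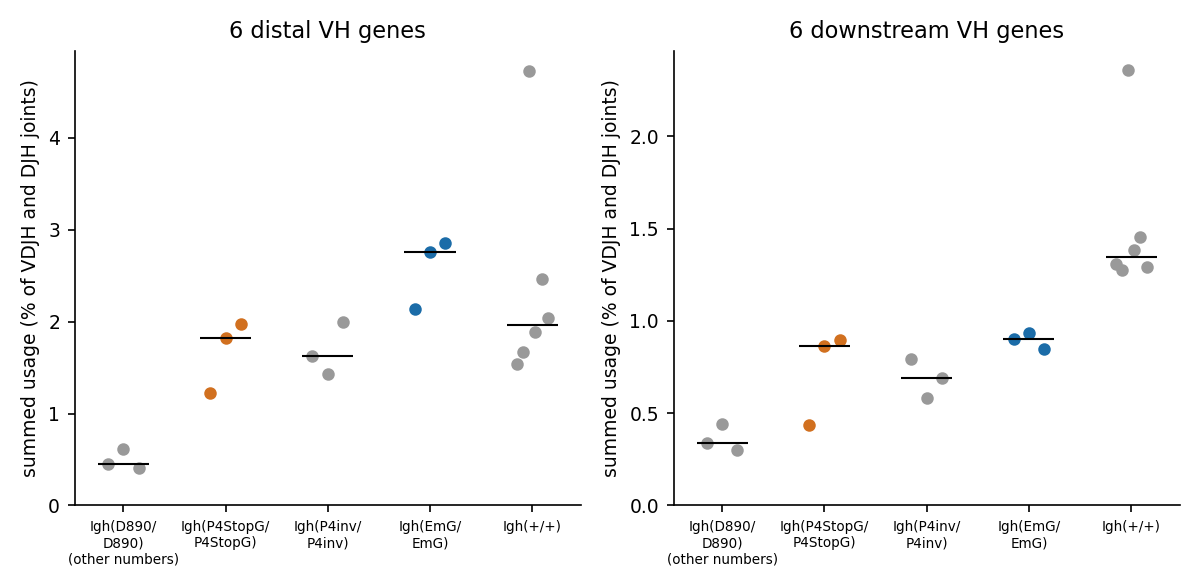
Summed usage of the 6 distal (left) and the 6 downstream VH genes (right) in percent of VDJH and DJH joints (vertical axes) by genotype (horizontal axes; D890 is Δ890, with experiment numbers apart from the others); dots are libraries and bars medians. The Igh(EmG/EmG) libraries lie at 2.14% to 2.85% on the distal side, above the 3 Igh(P4StopG/P4StopG) libraries, and overlap with them on the downstream side.

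Downstream of the insertion, 1 of the 5 genes tested among the 6 downstream VH genes was called higher in Igh(EmG/EmG), beside 5.66% of all genes tested, and 0 were called lower, with a median log2 difference of 0.41. The called gene was VH1-39, at 0.303%, 0.402% and 0.358% in Igh(EmG/EmG) and at 0.110%, 0.251% and 0.249% in Igh(P4StopG/P4StopG). The libraries did not overlap, and the log2 difference was 0.85 ± 0.26 (SE; limma adjusted p = 0.0180). This call was lost without any one of 5 of the 6 libraries, the exception being the second Igh(P4StopG/P4StopG) library, with limma adjusted p-values of 0.0740 to 0.399. Its log2 difference was 1.59 relative to the 2 Igh(+/+) libraries before each genotype (limma adjusted p = 0.2503). The lowest log2 difference was 0.48, without the first Igh(P4StopG/P4StopG) library (limma adjusted p = 0.205).

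VH1-47, the gene closest to the insertion, was at 0.288%, 0.284% and 0.167% in Igh(EmG/EmG) and at 0.173%, 0.371% and 0.378% in Igh(P4StopG/P4StopG). The values overlapped, with a log2 difference of -0.27 and a 95% interval of -0.77 to 0.23 (limma adjusted p = 0.975). Without the first Igh(P4StopG/P4StopG) library, the difference was -0.62 and VH1-47 was called lower in Igh(EmG/EmG) (limma adjusted p = 0.0482), together with VH10-1. All 6 values of VH1-47 were below those of the Igh(+/+) libraries, which were 0.473% to 0.530%.

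VH1-36 was at 0.128%, 0.108% and 0.122% in Igh(EmG/EmG) and at 0.04998%, 0.0598% and 0.109% in Igh(P4StopG/P4StopG), with a log2 difference of 0.70 (95% interval 0.14 to 1.27; limma adjusted p = 0.230). It was called higher without the third Igh(P4StopG/P4StopG) library, at 1.00 (limma adjusted p = 0.0338). VH1-42 was at 0.166%, 0.125% and 0.1705% in Igh(EmG/EmG) and at 0.0779%, 0.179% and 0.126% in Igh(P4StopG/P4StopG), with a log2 difference of 0.31 (95% interval -0.23 to 0.84; limma adjusted p = 0.975). Both pairs of groups overlapped. VH1-37 ranged from 0.0119% to 0.0174% in Igh(EmG/EmG) and from 0 to 0.0168% in Igh(P4StopG/P4StopG). VH1-43 did not pass the filter on mean usage, at 0 to 0.0129% and 0 to 0.0168%. VH1-43 and VH1-42 are 96.9% identical, and VH1-37 differs from its closest copy, VH1-20, at 4 of 290 bases. How joints were assigned between such copies was not tested.

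Beyond VH1-36, the named genes VH1-34, VH1-32, VH1-31, VH1-28 and VH1-27 had log2 differences of 0.29, 0.70, 0.45, 0.67 and 0.38, and none of the 5 passed the test, with limma adjusted p-values of 0.477 to 0.975. VH1-32 was at 0.0623%, 0.0406% and 0.0290% in Igh(EmG/EmG) and at 0.0265%, 0.0239% and 0.0168% in Igh(P4StopG/P4StopG), without overlap. VH1-28 did not overlap either, at 0.0193% to 0.0297% compared with 0.00840% to 0.0120%. In all, 12 of the 106 genes tested did not overlap between the genotypes (11.3%), and in each of them Igh(EmG/EmG) was higher. They include VH1S12. For 3 against 3 libraries, no overlap amounts to p = 0.1 by the exact permutation test (two-sided), the smallest value possible.

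**Figure D4:**
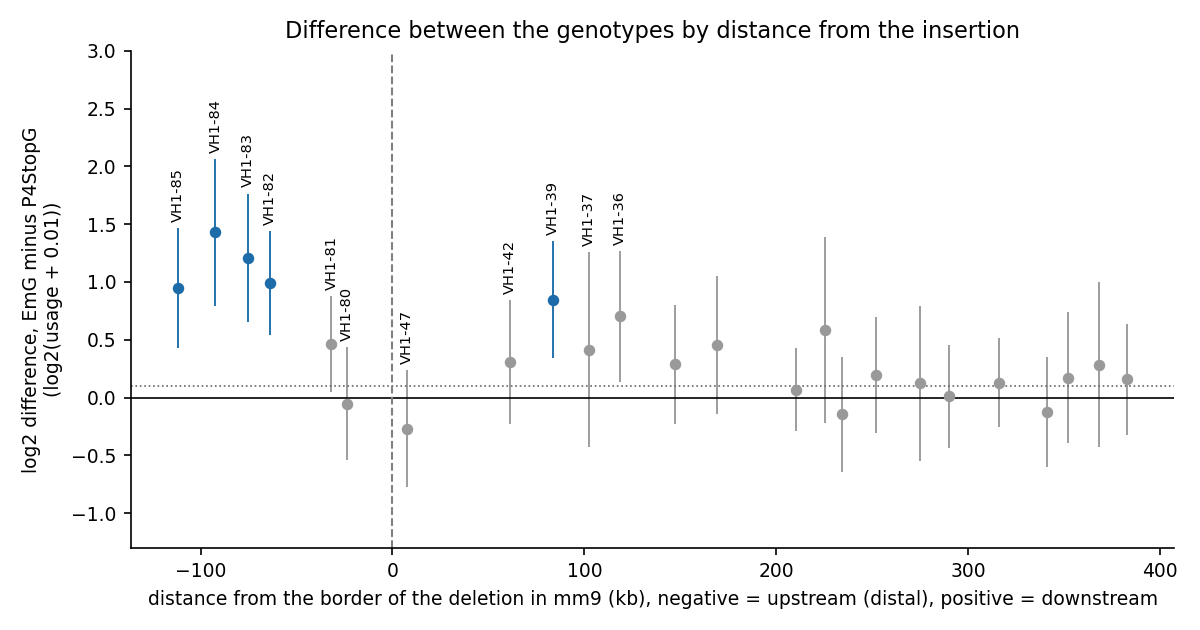
Log2 difference between Igh(EmG/EmG) and Igh(P4StopG/P4StopG) on the log2(usage + 0.01) scale (vertical axis) against the distance from the border of the deletion in mm9 in kb (horizontal axis), for the tested genes with a position within 400 kb; lines are 95% intervals from limma, blue genes had an adjusted p under 0.05, and the dotted line is the median of all genes tested. VH1-80 at -0.05, which was 0.92 relative to the wild type libraries numbered just before each genotype, and VH1-47 at -0.27 lie next to the insertion, and VH1-82 to VH1-85 at 0.95 to 1.43 lie 64.1 to 112 kb upstream of it. Downstream, VH1-42, VH1-39, VH1-37 and VH1-36 at 61.4 to 119 kb lie at 0.31, 0.85, 0.41 and 0.70. A relation with distance was not tested.

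The sum of the 6 downstream genes was 0.902%, 0.937% and 0.847% in Igh(EmG/EmG) and 0.435%, 0.861% and 0.896% in Igh(P4StopG/P4StopG). The first Igh(P4StopG/P4StopG) library had about the level of the Igh(Δ890/Δ890) libraries, at 0.301% to 0.440%, and the other two overlapped with Igh(EmG/EmG) (exact permutation test, p = 0.4, two-sided). Relative to the 2 Igh(+/+) libraries numbered just before each genotype, the downstream sums did not overlap, with a log2 difference of 0.83, and of 0.39 without the Igh(+/+) library at 78.8% (exact permutation test, p = 0.1 for both, two-sided). The difference between the means was 0.164 percentage points ± 0.1505 (SE). In all 6 libraries the downstream sum was below the lowest Igh(+/+) value of 1.28%. The ratio of distal to downstream usage within a library was 2.37, 2.95 and 3.37 in Igh(EmG/EmG) and 2.81, 2.12 and 2.20 in Igh(P4StopG/P4StopG), with a log2 difference of 0.28 ± 0.20 (SE) that was within the overlap of the libraries (exact permutation test, p = 0.2, two-sided). The log2 difference of the ratio was 0.56 with values divided by the wild type mean and 0.72 with values divided by the 2 Igh(+/+) libraries before each genotype, both without overlap (exact permutation test, p = 0.1, two-sided), and 0.42, with overlap, for the latter without the library at 78.8% (exact permutation test, p = 0.2). Whether the genotypes differed more on the distal than on the downstream side thus depended on the scaling, and on single libraries, since the unscaled ratios did not overlap without the first Igh(EmG/EmG) library (0.42) or the first Igh(P4StopG/P4StopG) library (0.41).

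Over the rest of the VH gene cluster, no gene with a place in the locus order was called. The 106 genes tested held 99.1% of the VDJH usage in Igh(EmG/EmG) and 99.4% in Igh(P4StopG/P4StopG). Of 25 tested VH1 genes downstream of the insertion other than the 6 above, 0 were called in either direction, with a median log2 difference of 0.13 and 1 gene higher at an unadjusted p under 0.05. Of 28 tested VH5 and VH2 genes and of 37 tested genes of the other families, 0 were called in either direction, with medians of 0.07 and 0.04. At an unadjusted p under 0.05, 1 VH5 or VH2 gene was higher and 1 was lower, and 0 genes of the other families were either.

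VH5-2, the most used gene of all, which lies close to the DH segments, was at 2.72%, 2.88% and 2.57% in Igh(EmG/EmG) and at 3.35%, 2.70% and 2.59% in Igh(P4StopG/P4StopG). The log2 difference was -0.07 (95% interval -0.35 to 0.21; limma adjusted p = 0.975). VH2-2 followed at 1.58%, 1.74% and 1.53% compared with 1.58%, 1.43% and 1.47%, and its log2 difference was 0.11 (95% interval -0.23 to 0.45; limma adjusted p = 0.975). The sum of the VH5 and VH2 genes was 9.96%, 10.7% and 9.75% in Igh(EmG/EmG) and 10.2%, 9.61% and 10.2% in Igh(P4StopG/P4StopG) (exact permutation test, p = 0.8, two-sided), a difference of 0.139 percentage points ± 0.338 (SE).

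The genes of the other families summed to 14.5%, 15.3% and 14.99% in Igh(EmG/EmG) and to 11.3%, 16.6% and 16.2% in Igh(P4StopG/P4StopG), and the VH1 genes downstream of the insertion to 7.79%, 8.77% and 8.86% and to 6.01%, 9.22% and 9.25% (exact permutation test, p = 1 for both, two-sided). In both sums the first Igh(P4StopG/P4StopG) library was the lowest and the other two were the highest of the 6, so that the Igh(EmG/EmG) libraries lay between them. Of 15 VH families with usage outside the deleted region, VH7 was the only one whose sums did not overlap, at 1.04%, 1.09% and 1.05% in Igh(EmG/EmG) and 0.726%, 1.00% and 0.958% in Igh(P4StopG/P4StopG).

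VH1S12, also called, was at 0.0307%, 0.0309% and 0.0332% in Igh(EmG/EmG) and at 0.0118%, 0% and 0.00840% in Igh(P4StopG/P4StopG), with a log2 difference of 1.39 ± 0.41 (SE; limma adjusted p = 0.0154). All 3 Igh(EmG/EmG) values were above the highest Igh(+/+) value of 0.0237%, which was not tested. It passed the filter on mean usage through Igh(EmG/EmG) alone, with means of 0.0316% and 0.00672%, so that its call is no support for a difference between the genotypes. It is 1 of 58 listed names to which the files give no place in the locus order. Outside the distal and downstream genes named above, the next largest positive differences were VH5-21 at 0.77 (limma adjusted p = 0.378) and VH1S45 at 0.65 (limma adjusted p = 0.677). Outside these genes, the largest negative differences were VH2-7 at -0.89, VH6-5 at -0.24 and VH5-12 at -0.22, with limma adjusted p-values of 0.462, 0.975 and 0.975. VH2-7 was at 0.00593%, 0.00580% and 0.00322% in Igh(EmG/EmG) and at 0.00588%, 0.0120% and 0.0504% in Igh(P4StopG/P4StopG), of which the third library was far above the others, and it passed the filter through Igh(P4StopG/P4StopG) alone.

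**Figure D5:**
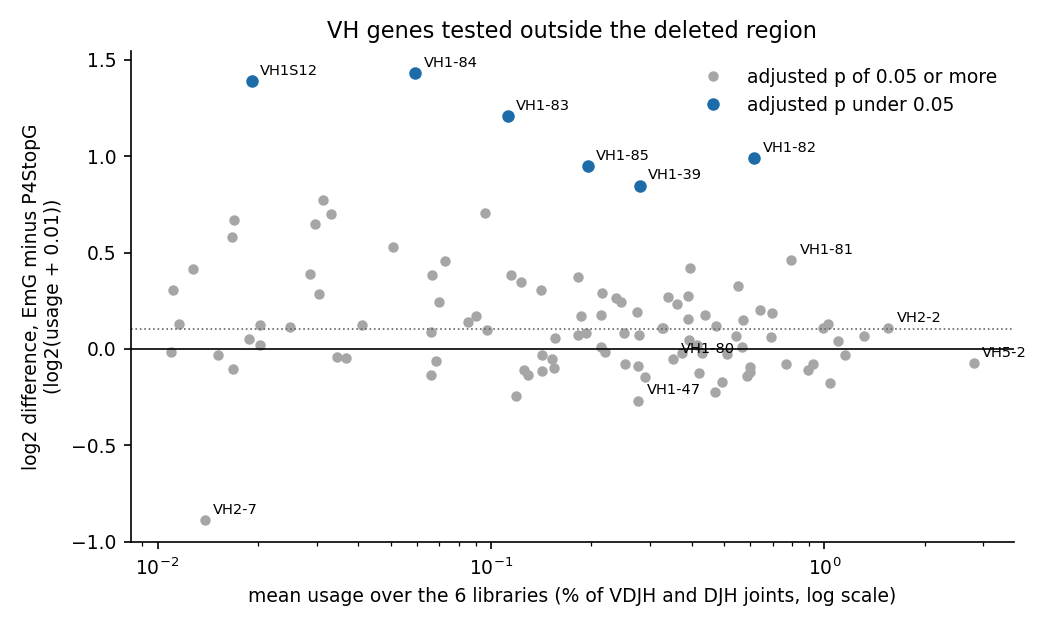
Log2 difference between Igh(EmG/EmG) and Igh(P4StopG/P4StopG) on the log2(usage + 0.01) scale (vertical axis) against the mean usage over the 6 libraries in percent on a log scale (horizontal axis) for the 106 VH genes tested; the dotted line is their median of 0.10. The 6 genes with an adjusted p under 0.05 lie at 0.85 to 1.43, and the frequently used VH5-2 and VH2-2 lie at -0.07 and 0.11.

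The percentage of VDJH joints was 35.1%, 38.3% and 37.3% in Igh(EmG/EmG) and 29.3%, 37.9% and 38.3% in Igh(P4StopG/P4StopG), and the groups overlapped (exact permutation test, p = 0.8, two-sided). The remainder, 61.7% to 70.7% in these 6 libraries, were DJH joints. The difference between the means was 1.74 percentage points ± 3.07 (SE), compared with 46.5% to 78.8% of VDJH joints in the Igh(+/+) libraries.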

How the data were processed

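Usage of VH genes was analysed in 6 VDJ-seq libraries of pro-B cells from 3 Igh(EmG/EmG) and 3 Igh(P4StopG/P4StopG) mice, with 6 Igh(+/+), 3 Igh(P4inv/P4inv) and 3 Igh(Δ890/Δ890) libraries as a reference. The authors sheared genomic DNA, ligated adapters with unique molecular identifiers, extended from JH primers, removed duplicates and assigned joints to VH genes. The deposited value is a percentage of all unique VDJH and DJH joints of the library, and the number of joints and the settings of the gene assignment are not given in the sources used here. The SDs and the errors of sums are therefore spreads between mice, which hold any counting error. The SEs, intervals and limma p-values of single genes rest on the trend over all genes described below. No separate counting error was computed. Replicates were numbered in accession order.

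Of 241 listed names, the 47 from VH1-79 to VH1-48 were left out, and 106 of the other 194 had a mean usage of at least 0.01% over the 6 libraries. These were tested with limma 3.58.1 in R 4.3.3 (lmFit, eBayes with trend) on log2(usage + 0.01), which understates the change of little used genes, with the Benjamini-Hochberg adjustment and a threshold of 0.05. The prior degrees of freedom were estimated as infinite, so that the spread of each gene was taken from the trend over all genes and not from its own 3 libraries. Sums were compared by exact permutation tests (scipy 1.17.1, two-sided), which cannot go below p = 0.1 with 3 against 3.

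The genes named were the distal and downstream genes, VH5-2, VH2-2 and VH8-7, and further genes by the smallest adjusted p or, where fewer than 3 passed, the largest difference. Genes, lists and comparison were chosen with earlier results of these data known. VH10-1, VH1-87, VH1-64, VH1-75 and VH1-20 were named after values were seen. Positions are from GENCODE vM1 on mm9, with names matched through RefSeq synonyms for 114 names. Primer sequences are from the study's list. V exons were aligned over 290 bases with Biopython 1.88. Alternatives were other pseudocounts, filters, denominators, fits, wild type scalings and leaving out each library.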

Additional observations from a re-analysis of the deposited data

How the results depend on the processing

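The libraries were treated as unpaired, since each came from 1 mouse and the labels name no pairs. The count of 6 called genes was 5 or 6, and of these at least 5 were the same genes, with the VDJH-only denominator, with a pseudocount of 0.001 or 0.1 and with a filter of 0.05%. It was 3 with no filter on low values, 3 with all 15 consecutively numbered libraries in 1 fit, 4 without the trend, 3 relative to the 2 wild type libraries before each genotype, and, in alternatives added after the data were seen, 2 relative to these without the wild type library at 78.8% and 6 with all other libraries in 1 fit. Leaving out single libraries gave 0 to 7 calls. Of the called genes, VH1-39 lost its call in 10 of 16 alternatives, VH1-85 in 7, VH1-83 and VH1-82 in 4 each, VH1-84 in 3 and VH1S12 in 6 of 15, and each stayed higher in Igh(EmG/EmG) in every alternative. Over the alternatives, the adjusted p ranged from 0.000972 to 0.183 for VH1-85, from 6.36e-05 to 0.0868 for VH1-84, from 0.000726 to 0.872 for VH1-83 and from 2.91e-06 to 0.152 for VH1-82. Relative to the 2 wild type libraries the median over all genes rose from 0.10 to 0.34.

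As log2 differences of the means, the distal sum was 0.63 and lay between 0.44 and 0.76 without single libraries, and the downstream sum was 0.29 and lay between 0.03 and 0.47. The ratio of distal to downstream usage, at 0.28, lay between 0.16 and 0.42. It reached 0.56 and 0.72, without overlap, with values divided by the wild type mean and by the 2 wild type libraries, and 0.42, with overlap, by the latter without the library at 78.8%. The percentage of VDJH joints was 0.07 and lay between -0.045 and 0.14. With the VDJH-only denominator, the sums of the VH5 and VH2 genes, of the other families and of the downstream VH1 genes reversed to -0.073, -0.041 and -0.0040, from 0.02, 0.02 and 0.05, and without single libraries they lay between -0.019 and 0.046, -0.14 and 0.11, and -0.12 and 0.15. None of these sums could pass a threshold of 0.05 by the exact permutation test used, given 3 against 3 libraries. VH1-80, at -0.05, lay between -0.28 and 0.08 without single libraries. The depth, which was not worked out, limits little used genes, such as VH1-84 at 0.0120% in the second Igh(P4StopG/P4StopG) library. There VH1-28, VH1-21 and VH2-7 had the same value, and the smallest value above 0 was 0.00399%. Without this library the log2 difference of VH1-84 was 1.07 (limma adjusted p = 0.0472).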
